A study of Mus musculus with 8 samples.

Results

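Genes of cytokinesis, the last step of cell division, were followed in pro-B cells without the miR-15b/16-2 cluster and the miR-15a/16-1 cluster. They were *Kif23* and *Racgap1*, the subunits of centralspindlin, *Ect2* and *Rhoa*, *Prc1*, *Anln*, *Cit* and *Cep55*. These were chosen by name, as the members of this machinery in the count table, and made up 8 of its 24746 genes. All 8 passed the filter on low counts and were among the 12714 genes tested.

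The series holds RNA sequencing libraries of pro-B cells, the B cell progenitors that rearrange the immunoglobulin heavy chain, sorted from mouse bone marrow. The DKO group (miR-15a/bfl/fl Vav-Cre, n = 4 mice) was set against the control group (miR-15a/b+/+ Vav-Cre, n = 4 mice), with 1 library per mouse. Both groups carried Vav-Cre, which is active throughout the hematopoietic system, so deletion was not limited to pro-B cells or to the B lineage. All mice were on a C57BL/6 background and 10 to 12 weeks old, and the floxed alleles had been made in embryonic stem cells of mixed background. The study defined pro-B cells by surface c-KIT without CD25, and cDNA was amplified by the SMART-seq protocol.

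Total counts ranged from 38073065 to 43288133 in DKO and from 38257907 to 41530921 in control libraries. Reads over *Mir16-1*, which lies in a deleted cluster, were 0 in each DKO library and 1 to 5 in control libraries. *Xist*, transcribed from the inactive X chromosome of female cells, was at 71.1 CPM (counts scaled to library size) or more in DKO mice 1 and 2 and control mice 2, 3 and 4, and at 0.140 CPM or less in DKO mice 3 and 4 and control mouse 1, where Y-linked genes were at 158 to 175 CPM. Control mouse 1 was thus the only control without *Xist*. All 12 pro-B markers were detected, with sums of 32880 to 36491 CPM in DKO and 30732 to 34773 CPM in control libraries. Among them 2 were higher in DKO, *Kit*, which encodes the sort marker c-KIT (log2 fold change 1.21, adjusted p = 0.00810), and *Il7r*, an IL-7 receptor chain (0.95, adjusted p = 0.00266, both by edgeR's quasi-likelihood test). The 5 later B cell markers summed to 489 to 576 CPM in DKO and 278 to 391 CPM in control libraries without overlap. Of these *Cd72* was higher in DKO (0.67, adjusted p = 0.0109) and *Fcer2a* lower (−2.99, adjusted p = 0.0144 by edgeR). *Cd72* made up most of the sum, at 477 to 558 CPM in DKO and 252 to 371 CPM in control libraries. *Ms4a1*, *Cr2* and *Cd22* had log2 fold changes of −1.14, −1.57 and −0.02 and did not pass. The part of these pro-B and later B markers in the results that follow was not tested. The 5 granulocyte markers summed to 207 to 1570 CPM in DKO and 305 to 1957 CPM in control libraries, and their most abundant member, *S100a9*, was at 790 and 683 CPM in DKO mice 3 and 4, against 113 and 197 CPM in DKO mice 1 and 2. In control libraries *S100a9* was at 1075 and 966 CPM in mice 1 and 4, against 161 and 178 CPM in mice 2 and 3. T cell markers stayed at 3.03 CPM or less in sum, and the globin genes *Hba-a1* and *Hbb-bs* were at 0 in all 8 libraries.

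Cytokinesis begins when the spindle midzone forms between the separating chromosomes. PRC1 crosslinks antiparallel microtubules there, and centralspindlin, made of the kinesin KIF23 (MKLP1) and the GTPase-activating protein RACGAP1 (MgcRacGAP), gathers on these bundles and recruits ECT2. ECT2, a guanine nucleotide exchange factor, loads RHOA with GTP at the equator, anillin (ANLN) and citron kinase (CIT) organise the contractile ring and the midbody that follows, and CEP55 brings the ESCRT machinery that cuts the last bridge. Most of these genes are transcribed in G2 and mitosis, through promoter elements such as the cell cycle homology region (CHR), whereas *Rhoa* acts in the cytoskeleton of every cell throughout its life. Early B cells divide in bursts between their rearrangement steps.

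The mature miRNAs of the deleted clusters are shown because their seed, bases 2 to 8 from the 5′ end, in capitals, is what a target transcript is read by. They are credited to RefSeq, build GRCm38.p6.
mmu-miR-15a-5p: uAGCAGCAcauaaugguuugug
mmu-miR-15b-5p: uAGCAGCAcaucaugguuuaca
mmu-miR-16-5p: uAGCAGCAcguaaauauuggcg
The 3 share the seed AGCAGCA. miR-15a lies at chr14:61632075-61632096 on the minus strand and miR-15b at chr3:69009775-69009796 on the plus strand, while miR-16 is encoded in both clusters, at chr14:61631936-61631957 and chr3:69009918-69009939. miR-195a-5p and miR-497a-5p, from a cluster on chromosome 11 that was not floxed, carry the same seed.

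*Kif23* was the one member with a match to this seed in its 3′ UTR. In GENCODE M21, each gene's longest and shortest 3′ UTR were searched on the transcript strand for TGCTGCTA (8mer), TGCTGCT (7mer-m8) and GCTGCTA (7mer-A1), the longer motif counted in place of those inside it. The 3′ UTR of *Kif23*, 384 bases in transcript ENSMUST00000034815.8, holds a single 8mer from base 192. The 30 bases that contain it, chr9:61917458-61917487 of GRCm38 on the minus strand, are shown with the 8mer in capitals.
*Kif23* 3′ UTR: aaaaaaacaaacaaaTGCTGCTAttgatta
An 8mer was the best match in 4.04% of the 20052 genes with an annotated 3′ UTR, and 24.0% had a match of some kind. In *Racgap1*, *Ect2*, *Prc1*, *Anln*, *Cit*, *Rhoa* and *Cep55* none of these letters occurred in either 3′ UTR, whose longest forms run from 893 bases in *Racgap1* to 2619 bases in *Cit*. A match is a description and not a measured site. *Kif23* is also among the genes that the study picked from these same libraries for a higher level and a predicted site, so its match and its level are not independent of each other.

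Promoters were searched in windows of 250 bases before to 50 bases after each start site (RefSeq, GRCm38.p6) for the CHR letters TTTGAA and TTCGAA on both strands. Of the 8 members, 6 had such a match, as did 21.7% of 27025 genes, and in 3 it began within 10 bases of the first listed start site. These are shown, on the gene's own strand, with the match in capitals.
*Kif23*, chr9:61946779-61946808: tgattggcctgTTTGAAatgcgccgggcgg
*Racgap1*, chr15:99651633-99651662: tggtgcgtgatTTTGAAccggatctggcgg
*Prc1*, chr7:80294435-80294464: ctctggctcggTTTGAAttccgcggggtcc
The first matched base lay at +3 of *Kif23*, +6 of *Racgap1* and −5 of *Prc1*. *Ect2* had matches at −114 and +40 of its first listed start site, *Anln* at +22 and +29, and *Cep55* at +25. *Cit* and *Rhoa* had no match in these windows. The E2F letters TTTGGCGC, TTTCGCGC, TTCCCGCC and TTGGCGGG were found in 0 of the 8 members and in 4.29% of genes.

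Both centralspindlin subunits stood higher in DKO pro-B cells than in those of control mice, and they were the only members past the threshold of the test. *Kif23* was 1.56-fold and *Racgap1* 1.41-fold higher, while 6 of the 8 members, *Ect2* and *Prc1* among them, did not reach an adjusted p of 0.05. No member was lower. Values are CPM after TMM normalization, and tests are quasi-likelihood tests of edgeR, adjusted by Benjamini and Hochberg's method over all 12714 genes. Of all genes tested, 2.65% were higher and 1.93% lower in DKO, 4.58% in either direction. The median log2 fold change of the 8 members was 0.28, against −0.01 over all tested genes, and 7 of the 8 were above 0, against 47.6% of all genes. RNA of sorted cells was measured in bulk, so a larger share of cells in G2 and mitosis and more RNA per such cell cannot be told apart.

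*Kif23*, the plus end-directed motor of centralspindlin (chr9:61917278-61946799, minus strand), was at 57.0, 59.97, 47.7 and 46.7 CPM in DKO mice 1 to 4, against 34.3, 30.3, 37.5 and 33.2 CPM in control mice 1 to 4. The groups did not overlap, the lowest DKO value being that of mouse 4 and the highest control value that of mouse 3. Mean levels were 52.8 ± 6.65 CPM in DKO and 33.8 ± 2.94 CPM in control cells (SD, n = 4 each). On the log2 scale the difference was 0.64 with a standard error of 0.11 and a 95% interval of 0.39 to 0.89 (adjusted p = 0.0122 by edgeR). Without DKO mouse 1 the adjusted p was 0.0503, and with any other single mouse left out it was between 0.0159 and 0.0453.

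*Racgap1*, the partner that binds ECT2 (chr15:99620496-99651656, minus strand), was at 135, 134, 105 and 107 CPM in DKO mice 1 to 4 and at 98.3, 70.9, 90.1 and 82.4 CPM in control mice 1 to 4. All 4 DKO values exceeded all 4 control values, the nearest being DKO mouse 3 and control mouse 1. The means were 120 ± 16.1 CPM in DKO and 85.4 ± 11.7 CPM in control cells (SD, n = 4 each). This gave a log2 fold change of 0.49 (standard error 0.12, 95% interval 0.22 to 0.77) with edgeR's adjusted p at 0.0477, just inside the threshold. It stayed there in 1 of 8 fits with a mouse left out, that without control mouse 1 (adjusted p = 0.0245), and in the other 7 the edgeR adjusted p was between 0.0594 and 0.140.

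*Ect2*, the exchange factor that centralspindlin recruits (chr3:27097222-27153878, minus strand), was at 36.4, 38.3, 30.5 and 30.7 CPM in DKO and at 27.1, 23.8, 26.7 and 24.1 CPM in control mice 1 to 4. The groups did not overlap here either, yet the adjusted p of edgeR was 0.0550 (unadjusted 0.00282) at a log2 fold change of 0.42 (standard error 0.11, 95% interval 0.18 to 0.66). It was 0.0458 without control mouse 1 and between 0.0612 and 0.155 without any other mouse. Non-overlapping groups with DKO higher were thus found for 3 of the 8 members, *Kif23*, *Racgap1* and *Ect2*, and for 7.63% of all tested genes. The reverse pattern, found for 6.21% of genes, was seen in 0 members. With *Prc1*, 4 members had an unadjusted p under 0.05, as had 20.2% of genes.

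*Prc1*, the microtubule bundler of the midzone (chr7:80294451-80316259, plus strand), was at 67.1, 79.3, 54.1 and 51.8 CPM in DKO and at 60.3, 39.6, 44.3 and 40.3 CPM in control mice 1 to 4. Control mouse 1 was above DKO mice 3 and 4, so the groups overlapped. The log2 fold change was 0.45 (standard error 0.17, 95% interval 0.08 to 0.82), with an adjusted p of 0.161 from edgeR, and 0.0382 without control mouse 1. Leaving that mouse out put 4 members past the threshold, with 3.83% of genes higher and 3.09% lower.

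**Figure D1:**
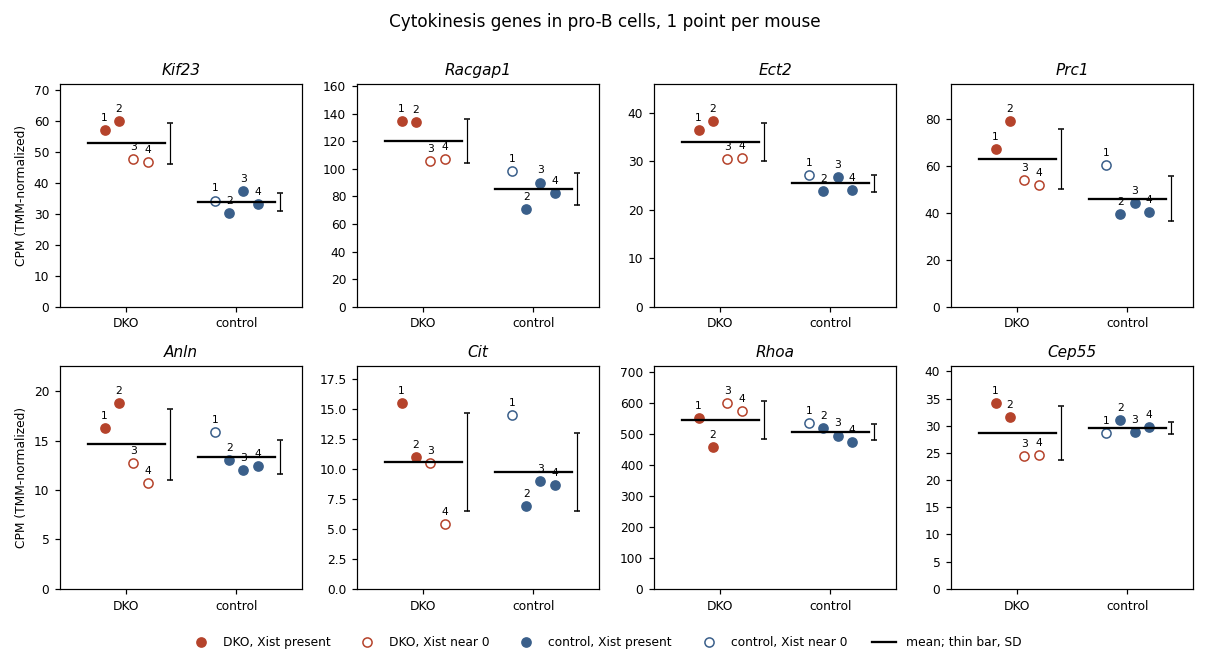
TMM-normalized CPM of each gene on the y axis, with DKO left of control, 1 numbered point per mouse, filled where *Xist* was present, a black line at the mean and a thin bar of 1 SD. *Kif23*, *Racgap1* and *Ect2* have no overlap between groups, and DKO mice 3 and 4, without *Xist*, lie below DKO mice 1 and 2 in every panel but that of *Rhoa*.

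The remaining 4 members overlapped between groups and did not approach the threshold with all 8 libraries. *Rhoa*, the GTPase itself (chr9:108306160-108337943, plus strand), was at 551, 456, 599 and 575 CPM in DKO and at 534, 520, 495 and 474 CPM in control mice 1 to 4. Its log2 fold change was 0.11 (standard error 0.10) and the 95% interval of −0.11 to 0.33 puts the DKO level between 0.927 and 1.26 times that of control. DKO mouse 2 had the lowest *Rhoa* value of all 8 libraries while its *Kif23* value was the highest.

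*Anln*, which links RHOA, actin and myosin in the ring (chr9:22331214-22389206, minus strand), was at 16.3, 18.8, 12.7 and 10.7 CPM in DKO and at 15.8, 13.0, 12.0 and 12.4 CPM in control mice 1 to 4. DKO values lay on both sides of the control values. The log2 fold change was 0.13 (standard error 0.18, 95% interval −0.27 to 0.54).

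*Cit*, the midbody kinase (chr5:115845656-116006341, plus strand), was the least abundant and most variable member, at 15.5, 10.99, 10.5 and 5.44 CPM in DKO and at 14.5, 6.89, 9.002 and 8.69 CPM in control mice 1 to 4. The coefficient of variation was 38.8% in DKO and 33.6% in control libraries, and the 95% interval of its log2 fold change, −0.55 to 0.79, includes changes of either sign. The exons counted for *Cit* hold 13 of the 2619 bases of its longest 3′ UTR, so reads in the rest were not counted.

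*Cep55*, the abscission scaffold (chr19:38055025-38074425, plus strand), was at 34.1, 31.6, 24.4 and 24.6 CPM in DKO and at 28.7, 31.1, 28.8 and 29.7 CPM in control mice 1 to 4. DKO mice 1 and 2 were above and DKO mice 3 and 4 below every control, a coefficient of variation of 17.3% in DKO against 3.73% in control libraries. Its log2 fold change was −0.04 (standard error 0.13, 95% interval −0.32 to 0.23). The adjusted p of edgeR was 0.588 for *Rhoa*, 0.729 for *Anln*, 0.867 for *Cit* and 0.885 for *Cep55*.

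**Figure D2:**
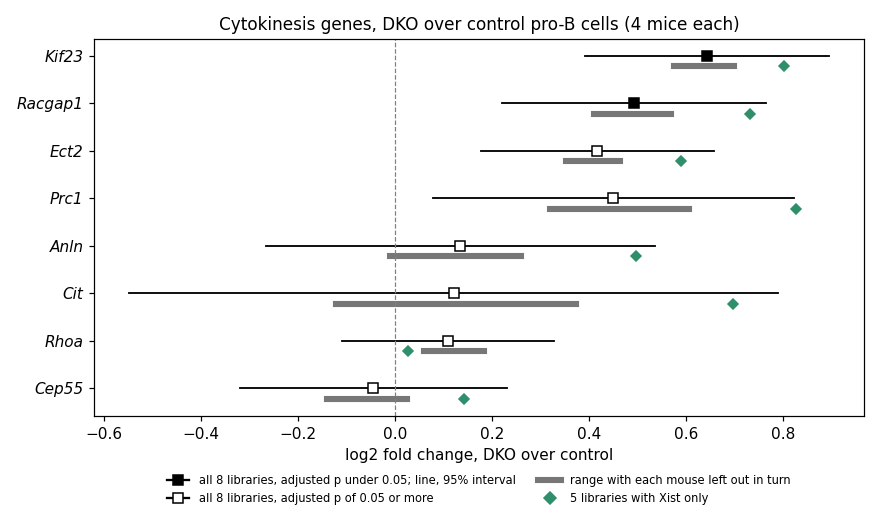
Log2 fold change of DKO over control on the x axis for the 8 genes, as squares (filled where the adjusted p was under 0.05) with 95% intervals, gray bars for the range with each mouse left out in turn and green diamonds for the 5 libraries with *Xist*. *Kif23* has the highest value, 0.64, and the intervals of *Anln*, *Cit*, *Rhoa* and *Cep55* cross 0.

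Within the DKO group the members other than *Rhoa* mostly moved together by mouse. DKO mouse 1 was above the DKO mean of log2 CPM in 8 of the 8 members and DKO mouse 2 in 7, whereas DKO mouse 3 was above it in 2 and DKO mouse 4 in 1. Among controls, mouse 1 was above the control mean of log2 CPM in 7 members, and mice 2, 3 and 4 in 2, 3 and 1. Shares of all tested genes above these means were not counted. DKO mice 1 and 2 had *Xist* and DKO mice 3 and 4 had not, and the granulocyte marker *S100a9* was low in the first pair and high in the second, as given above. The part of sex or of other cells in these differences was not tested beyond the values that follow.

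Among the 5 libraries with *Xist*, 2 DKO against 3 control, the ratio of DKO to control mean CPM was 1.74 for *Kif23*, 1.66 for *Racgap1*, 1.4999 for *Ect2* and 1.77 for *Prc1*. For *Anln*, *Cit*, *Cep55* and *Rhoa* it was 1.41, 1.62, 1.10 and 1.02. edgeR's quasi-likelihood test on these 5 libraries put 4 members past the threshold, with adjusted p of 0.0175 for *Kif23*, 0.0190 for *Racgap1*, 0.0311 for *Ect2* and 0.0120 for *Prc1*, where 2.47% of genes were higher. Among the 3 libraries without *Xist*, 2 DKO against control mouse 1, the ratio was 1.38 for *Kif23*, 1.08 for *Racgap1* and 1.13 for *Ect2*. It was 0.877 for *Prc1*, 0.738 for *Anln*, 0.551 for *Cit*, 0.854 for *Cep55* and 1.10 for *Rhoa*. *Kif23* was the member with the largest ratio there. As a single control lacked *Xist*, the sex of that mouse and any other property of it cannot be told apart.

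Per length, *Rhoa* was by far the most abundant member, at 344 ± 34.3 TPM (counts over the exon lengths of the table, scaled to a fixed total per library) in DKO and 319 ± 22.3 TPM in control cells (SD, n = 4 each). *Racgap1* came next at 61.0 ± 9.68 TPM in DKO and 42.95 ± 4.07 TPM in control, then *Prc1* at 32.4 ± 7.26 and 23.4 ± 2.96 TPM, and *Kif23* at 24.0 ± 3.59 and 15.3 ± 1.73 TPM. *Cep55* followed at 16.1 ± 3.17 TPM in DKO and 16.5 ± 1.72 TPM in control, *Ect2* at 12.8 ± 1.80 and 9.56 ± 0.671 TPM, *Anln* at 4.20 ± 1.13 and 3.78 ± 0.221 TPM, and *Cit* at 2.40 ± 0.9747 and 2.15 ± 0.528 TPM. *Kif23* and *Cep55* changed places: *Kif23* was above *Cep55* in each DKO library, while in control libraries *Cep55* was above *Kif23* in mice 1, 2 and 4 and below it in mouse 3. Other neighbours in this order were *Prc1* and *Kif23*, *Cep55* and *Ect2*, and *Anln* and *Cit*. Their ranges over the DKO libraries overlapped and those over the control libraries did not. Within each library, DKO or control, the first gene of each pair was above the second.

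**Figure D3:**
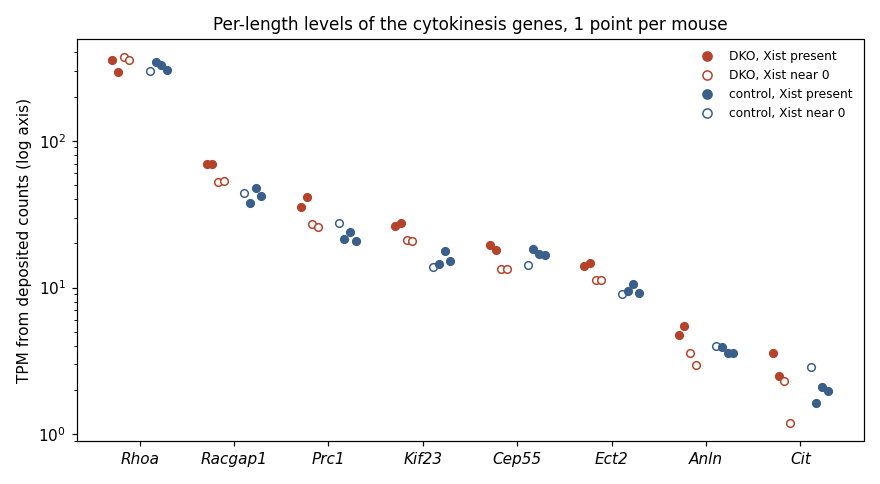
TPM on a log axis for the 8 genes, ordered by their DKO mean, with 1 point per mouse, DKO left of control and filled points where *Xist* was present. The order runs from *Rhoa* at 344 TPM to *Cit* at 2.40 TPM in DKO cells.

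The 2 centralspindlin subunits kept a similar proportion to each other. The TPM of *Kif23* over that of *Racgap1* was 0.379, 0.401, 0.405 and 0.389 in DKO mice 1 to 4 and 0.312, 0.383, 0.372 and 0.360 in control mice 1 to 4. DKO mouse 1 lay just below control mouse 2, so these ratios overlapped. *Cep55* over *Racgap1*, in contrast, was 0.280, 0.260, 0.255 and 0.253 in DKO and 0.322, 0.483, 0.353 and 0.398 in control mice, all 4 DKO ratios below all controls. A non-overlapping lower ratio to *Racgap1*, itself higher in DKO, was found for 30.9% of all genes and a higher one for 0.519%. *Ect2*, *Prc1*, *Anln*, *Cit* and *Rhoa* had overlapping ratios to *Racgap1*.

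To set the members beside the rest of G2 and mitosis, each was divided by the summed CPM of 34 other genes of these phases. This sum was 3641, 3967, 3329 and 3115 CPM in DKO mice 1 to 4 and 3858, 2840, 3357 and 3141 CPM in control mice 1 to 4, with overlapping groups. Per 1000 CPM of the list, *Kif23* was at 15.6, 15.1, 14.3 and 14.98 CPM in DKO and at 8.89, 10.7, 11.2 and 10.6 CPM in control mice. *Racgap1* was at 37.0, 33.8, 31.6 and 34.4 in DKO and at 25.5, 24.97, 26.8 and 26.2 in control mice on this scale. Division by the list thus drew the 4 DKO values of each subunit together, control mouse 1 included among the lower group.

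*Ect2* was at 9.99, 9.65, 9.16 and 9.86 per 1000 in DKO and at 7.02, 8.39, 7.96 and 7.68 per 1000 in control mice. *Prc1* was at 18.4, 20.0, 16.2 and 16.6 per 1000 in DKO and at 15.6, 13.96, 13.2 and 12.8 per 1000 in control mice. On this scale 4 of the 8 members did not overlap between groups and were higher in DKO, as were 2.72% of all tested genes, while 5.24% of genes and 0 members did not overlap and were lower. *Anln* averaged 4.11 ± 0.600 per 1000 in DKO and 4.05 ± 0.411 in control, *Cit* 2.98 ± 1.04 and 2.91 ± 0.583, *Rhoa* 158 ± 32.0 and 155 ± 19.5, and *Cep55* 8.14 ± 0.873 and 9.10 ± 1.48 (SD, n = 4 each), all with overlapping groups. No test was made on these ratios.

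**Figure D4:**
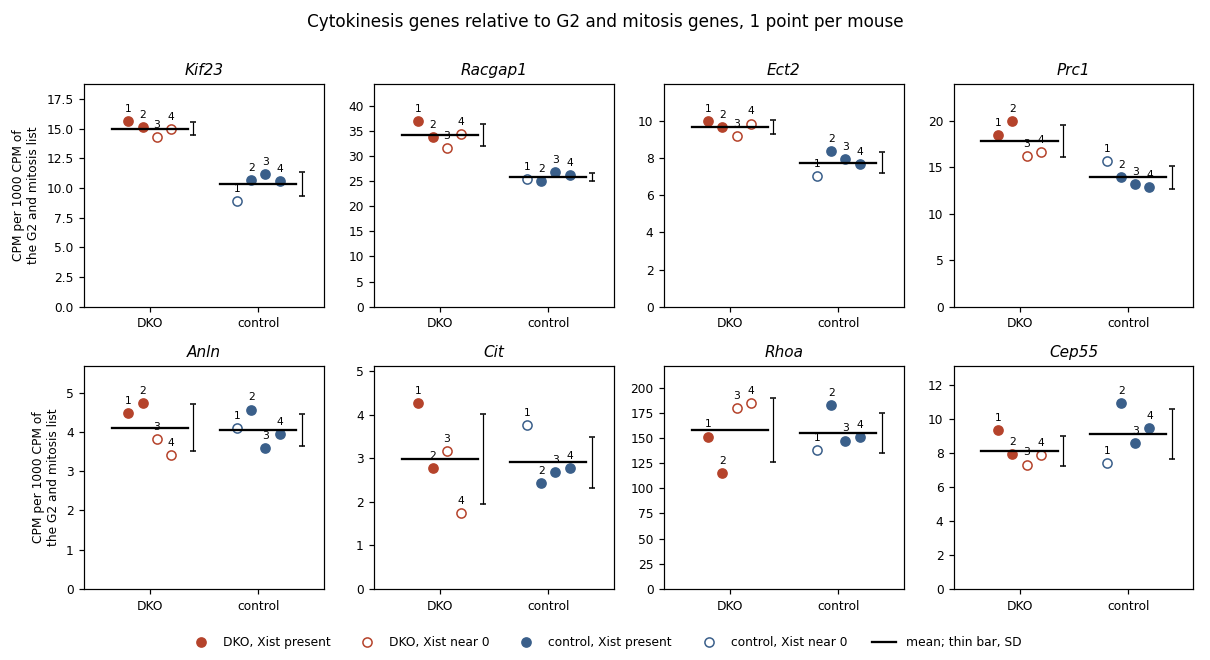
CPM of each gene per 1000 CPM of the 34-gene G2 and mitosis list on the y axis, with DKO left of control, 1 numbered point per mouse, filled where *Xist* was present, a line at the mean and a thin bar of 1 SD. *Kif23*, *Racgap1*, *Ect2* and *Prc1* separate the groups, and *Anln*, *Cit*, *Rhoa* and *Cep55* do not.

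Likeness of pattern was measured as the root-mean-square difference in deviations of log2 CPM from each gene's own mean over the 8 libraries, among tested genes with a mean of at least 5 CPM, where 0 means the same pattern. *Kif23* was closest to *Bub1b*, a kinase-like protein of the spindle checkpoint (0.0597), then to *Nek2*, a centrosomal kinase (0.0983), and to *Ptges2* (0.106). *Racgap1* was closest to *Ect2* (0.0891), then to the kinesin *Kif22* (0.0945) and the nuclear lamin *Lmnb2* (0.0946). *Racgap1* was the sixth closest of 9328 genes to *Kif23* (0.111), and *Prc1* ranked 23 for *Racgap1* (0.127). *Cit* and *Rhoa* were the least alike pair of members (0.494). The points share libraries, depth and the group difference, and no test was made.

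Other genes of the pathway were set beside the shares over all tested genes. Of 12 chromosomal passenger and midzone partners 0 passed edgeR's quasi-likelihood test, against 4.58% of all tested genes in either direction. Their median log2 fold change was 0.16. An unadjusted p under 0.05 was found for 1 of them, and for 20.2% of all tested genes. That gene was *Aurkb*, a kinase that acts on centralspindlin, at 129, 150.6, 126 and 105 CPM in DKO and 113, 82.3, 89.9 and 83.8 CPM in control mice (log2 fold change 0.47, adjusted p = 0.0669 by edgeR). *Kif2a*, a microtubule depolymerase, had the next smallest p, at a log2 fold change of −0.37 (adjusted p = 0.316 by edgeR). *Aurkb* passed without control mouse 1 (adjusted p = 0.0176) or without DKO mouse 4 (0.0464), and by DESeq2 and edgeR's likelihood ratio test. By edgeR's quasi-likelihood test on the 5 libraries with *Xist*, 2 of the 12 partners were higher. *Aurkb* was among them (log2 fold change 0.72, edgeR adjusted p = 0.0120). Of all genes tested in those libraries, 2.47% were higher.

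Among 18 contractile ring and septin genes 0 passed the quasi-likelihood test (4.58% over all tested genes), with a median log2 fold change of 0.01. An unadjusted p under 0.05 was found for 6 of these 18, and for 20.2% of all tested genes. *Actg1*, a cytoplasmic actin, averaged 1003 ± 132 CPM in DKO and 773 ± 11.3 CPM in control cells (SD, n = 4 each, log2 fold change 0.38, adjusted p = 0.0635 by edgeR). *Rock2*, a kinase that RHOA activates, averaged 114 ± 20.99 CPM in DKO and 82.1 ± 14.2 CPM in control (0.48, adjusted p = 0.112 by edgeR). By DESeq2 both were past the threshold. With the 5 libraries that had *Xist*, *Rock2* passed (0.56, adjusted p = 0.0241 by edgeR) and *Actg1* did not.

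Of 19 abscission and ESCRT-III genes 18 were tested and 0 passed the quasi-likelihood test (4.58% over all tested genes). The median log2 fold change was −0.01. An unadjusted p under 0.05 was found for 8 of the 18 tested, and for 20.2% of all tested genes. *Ist1*, an ESCRT-III subunit, averaged 166 ± 6.08 CPM in DKO and 134 ± 10.7 CPM in control (SD, n = 4 each, log2 fold change 0.31, adjusted p = 0.0591 by edgeR). *Mitd1*, which acts at the midbody, averaged 43.6 ± 4.94 CPM in DKO and 57.8 ± 5.06 CPM in control (−0.41, adjusted p = 0.0628 by edgeR). DESeq2 and edgeR's likelihood ratio test put *Ist1* and *Mitd1* past the threshold, in these opposite directions.

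Among the 34 genes of G2 and mitosis, 1 rose, 1 fell and 32 did not pass, with a median log2 fold change of 0.17. Over all tested genes 2.65% were higher and 1.93% lower. The log2 fold change was above 0 in 22 of the 34, and in 47.6% of all tested genes. An unadjusted p under 0.05 was found for 11 of the 34, and for 20.2% of all tested genes. *Bub1b* averaged 79.8 ± 12.5 CPM in DKO and 51.6 ± 6.29 CPM in control cells (SD, n = 4 each, log2 fold change 0.63, adjusted p = 0.0224 by edgeR). *Cenpa*, the centromeric histone H3 variant, averaged 189 ± 10.1 CPM in DKO and 270 ± 36.2 CPM in control (−0.52, adjusted p = 0.0189 by edgeR). *Bub1b* missed the threshold without DKO mouse 1 or 2 or control mouse 2 or 4 (adjusted p between 0.0577 and 0.0755), and *Cenpa* without DKO mouse 1, 2 or 3 (between 0.0626 and 0.0662). With the 5 libraries that had *Xist*, 10 of the 34 genes were higher and 1 was lower by the same test, and the median was 0.37. Over all genes tested in those libraries, 2.47% were higher and 1.93% lower.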

How the data were processed

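RNA of sorted pro-B cells from 4 DKO and 4 control mice was sequenced, with 1 library per mouse. The authors trimmed the reads with Trimmomatic, aligned them with STAR and deposited raw counts per gene from featureCounts, beside each gene's exon length and position. Tool versions and the strand used in counting: not given in the sources used here. GRCm39 stands in the submitters' notes, but GRCm38 was used, since 99.6% of 24160 genes found by symbol in GENCODE M21 overlapped their place on it. Date-like names of 13 genes were restored by position. No member shared exon bases with another gene of the table, so strand could not have mixed their reads with those of a listed gene.

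In R 4.3.3, edgeR 4.0.16 scaled the counts by TMM, kept genes by filterByExpr (at least 10 counts, and 15 in total) and ran its quasi-likelihood test with genotype as the only term, a prior count of 0.125, Benjamini-Hochberg adjustment and a threshold of 0.05. Standard errors and intervals come from the same fit. TPM used all genes of the table. The code was tested on simulated data. The members, the gene lists, the motifs and the tests were chosen with earlier results of these data known. Named genes were the 8 members, in each list those past the threshold or, where fewer than 2 passed, the 2 with the smallest p, and the 3 genes most like *Kif23* and *Racgap1*. *Chmp4c* was too low to be tested, and 1 further list is not reported here. As alternatives, DESeq2 1.42.0, limma-voom (limma 3.58.1) and edgeR's likelihood ratio test were run, as were other normalizations and filters, a replicate block, *Xist* as a covariate, leaving out immunoglobulin and hemoglobin genes, and leaving out each mouse. The fits on libraries with *Xist* only and with an interaction term were chosen after seeing the data. Precision was limited by differences between mice more than by counting.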

Additional observations from a re-analysis of the deposited data

Results flagged for a closer look

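The genotype difference of 4 cytokinesis genes pointed in opposite directions in libraries with and without *Xist*: both DKO libraries lay above all 3 controls where *Xist* was present, and both lay below control mouse 1 where it was not. How common this pattern was among all tested genes was not counted. The difference was then tested as an interaction term in edgeR's quasi-likelihood fit, adjusted over 12714 genes, of which 2 passed. The log2 ratio of the DKO to control ratio with *Xist* over that without was 1.01 for *Prc1* (unadjusted p = 0.000258, adjusted p = 0.0842), 0.93 for *Anln* (adjusted p = 0.169), 1.55 for *Cit* (adjusted p = 0.203) and 0.37 for *Cep55* (adjusted p = 0.401), so none of the 4 passed. It was 0.34 for *Kif23*, 0.61 for *Racgap1*, 0.41 for *Ect2* and −0.12 for *Rhoa*, with adjusted p of 0.488, 0.190, 0.366 and 0.810 from edgeR. The libraries without *Xist* hold 1 control, which the fit assumes to vary like the others. None of the 16 sets of 4 values, 8 genes in 2 groups, had a sample set apart by Dixon's test.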

How the results depend on the processing

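No member was lower in DKO under any alternative, and *Kif23*, *Racgap1*, *Ect2*, *Prc1* and *Rhoa* kept a positive log2 fold change under all of them. *Kif23* passed in 10 of 11 alternatives that kept each group's mice or took the libraries with *Xist* only, and *Racgap1* in 7. Members higher in DKO numbered 1 (*Kif23*) with DESeq2 size factors, with library size alone and with a minimum of 1 CPM in 4 libraries, where *Racgap1* had an adjusted p of 0.0543, 0.0535 and 0.0544 by edgeR, 4 with the *Xist* libraries only, and 0 to 4 with a mouse left out, 0 being without DKO mouse 1 and 4 without control mouse 1. *Ect2* passed as well by edgeR's likelihood ratio test, DESeq2 and with *Xist* as a covariate. Over all genes the counts higher and lower were 519 and 461 by the likelihood ratio test, 674 and 568 by DESeq2, 559 and 506 with the *Xist* covariate, and 142 to 493 and 84 to 398 with a mouse left out. They were 326 and 252 with DESeq2 size factors and 263 and 279 with library size alone, of 12714 genes each. A minimum of 1 CPM in 4 libraries gave 326 and 251 of 11254 genes, and the *Xist* libraries only gave 322 and 252 of 13039.

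The log2 fold change changed sign for *Anln*, *Cit* and *Cep55*, none of which passed under any alternative. *Anln* was at −0.010 without DKO mouse 2, up to 0.26 with another mouse left out and 0.50 with *Xist* libraries only. *Cit* was at −0.12 without DKO mouse 1 and −0.02 without control mouse 2. It ran up to 0.37 with another mouse left out and 0.70 with *Xist* libraries only. *Cep55* was at 0.0081 with the *Xist* covariate, 0.14 with *Xist* libraries only, 0.026 without DKO mouse 3 and 0.024 without DKO mouse 4. It ran down to −0.14 with another mouse left out. With *Xist* libraries only the edgeR adjusted p was 0.0835 for *Anln* and 0.103 for *Cit*, the smallest of any fit for each. The cause of the sign changes was not tested.

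No pairing of the mice by replicate number was seen: the correlations of same-numbered deviations were −0.29, 0.08, −0.26 and −0.09, and 0 of 4 DKO libraries correlated best with its own number. The best was control mouse 3 for DKO mice 1 and 2 and control mouse 1 for DKO mice 3 and 4. These matches were alike in *Xist* and also in a low or high level of *S100a9*. The part of either in the matches, and a weaker pairing beneath these differences, were not tested. With a replicate block 94 genes were higher, 54 lower and 0 members passed, *Kif23* at an adjusted p of 0.0701 and *Racgap1* at 0.115 by edgeR. The search of the shortest 3′ UTR gave the same seed matches. It could not differ for *Kif23* or *Rhoa*, which each have 1 annotated 3′ UTR. The shortest and longest forms were of nearly the same length in *Racgap1* (892 and 893 bases), *Ect2* (1176 and 1177) and *Cep55* (923 and 925). The order of levels did not change with RPKM.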
